A study of Mus musculus with 6 samples.

Results

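Levels of 6 genes of the zinc response were examined in B16F10 cells, an established line of mouse melanoma cells. The genes were the metallothioneins Mt1, Mt2 and Mt3, the transcription factor Mtf1, the zinc exporter Slc30a1 and the zinc importer Slc39a10, chosen by their symbols, and all 6 were found among the 27179 genes of the deposited table. RNA had been sequenced from 3 wild-type samples treated for 6 h with 0.01% ozonated olive oil (OZO) and from 3 wild-type samples treated for 6 h with 0.01% olive oil (OLO). The series was designed to compare OZO with OLO. No library was analysed by itself, so each level below is the authors' mean over all 6 libraries, OLO and OZO together, and no difference between the treatments was tested.

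Metallothioneins are small proteins rich in cysteine that bind zinc and copper and also react with oxidants. MTF1 binds zinc and then drives Mt1, Mt2 and Slc30a1 through short DNA motifs known as metal response elements. In mouse cells it is also known to hold down Slc39a10 when zinc is plentiful. Proteins of the SLC30 family move zinc out of the cytosol and those of the SLC39 family move it in.

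The RefSeq promoter table on GRCm38.p6 (the mm10 build) held all 6 genes. Each window is made of the 250 bases before an annotated gene start, and 7 windows belonged to the 6 genes because Slc39a10 has more than 1 start. The core of the metal response element was searched on both strands as TGCACNC and TGCGCNC. Windows are shown for Mt1, Mt2 and Slc30a1, which hold a core, and for Mt3, the metallothionein with the lowest level among the members, which holds none. They lie at chr8:94178839-94179088 (Mt1, plus strand), chr8:94172368-94172617 (Mt2, plus strand), chr1:191906531-191906780 (Slc30a1, plus strand) and chr8:94152357-94152606 (Mt3, plus strand), and capitals mark the cores.
Mt1: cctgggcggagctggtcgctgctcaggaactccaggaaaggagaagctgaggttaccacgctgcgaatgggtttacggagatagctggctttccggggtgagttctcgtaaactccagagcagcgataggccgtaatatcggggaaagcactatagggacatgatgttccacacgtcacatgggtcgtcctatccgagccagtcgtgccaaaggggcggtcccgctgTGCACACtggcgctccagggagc
Mt2: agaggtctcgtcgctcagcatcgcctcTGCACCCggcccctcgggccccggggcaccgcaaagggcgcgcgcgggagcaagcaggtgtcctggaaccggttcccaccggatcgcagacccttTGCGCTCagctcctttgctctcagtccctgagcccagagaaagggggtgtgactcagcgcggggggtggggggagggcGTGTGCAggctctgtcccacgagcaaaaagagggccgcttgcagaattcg
Slc30a1: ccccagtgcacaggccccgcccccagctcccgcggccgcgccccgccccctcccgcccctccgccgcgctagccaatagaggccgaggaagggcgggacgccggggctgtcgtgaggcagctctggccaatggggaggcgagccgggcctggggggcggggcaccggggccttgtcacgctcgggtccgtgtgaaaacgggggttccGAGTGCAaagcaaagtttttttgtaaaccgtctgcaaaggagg
Mt3: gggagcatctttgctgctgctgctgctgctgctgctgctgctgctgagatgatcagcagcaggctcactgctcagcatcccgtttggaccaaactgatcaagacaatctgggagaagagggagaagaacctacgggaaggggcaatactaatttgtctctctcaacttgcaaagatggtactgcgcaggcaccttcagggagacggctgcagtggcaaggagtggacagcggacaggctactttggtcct

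The window of Mt2 held 3 cores, none overlapping another, at positions -223 to -217 and -128 to -122 on the strand of the gene and -50 to -44 on the opposite strand, counted from the start. Windows with 3 cores or more made up 1.26% of the 32851 windows of all genes, 2.14% of those of genes with at least 1 CPM and 2.38% of those with 60% to 70% GC. Mt1 held 1 core at -23 to -17, and Slc30a1 held 1 core on the opposite strand at -43 to -37. Mt4, a metallothionein outside the 6 genes and without a read in any library, also held 1 core on the opposite strand, at -91 to -85. At least 1 core was present in 21.4% of all windows, so a window with 1 core was common. No match lay in the window of Mt3, in that of Mtf1 or in either window of Slc39a10. The windows of Slc39a10 precede RefSeq starts at 46853618 and 46925776 on the minus strand of chromosome 1. The GENCODE M21 annotation places this gene from 46807544 to 46892852, so neither window lies at its GENCODE start. Promoters with much G and C hold the core more often, since 34.7% of the windows with 60% to 70% GC had one, and the GC content of the Mt1, Mt2 and Slc30a1 windows was 58.8%, 67.6% and 71.2%. A core is a match of letters, and binding of MTF1 was not measured. Annotated starts differ between sources, and with the 50 bases after the start included, a window extended after its values were seen, Mt1 held 3 cores, Mt2 4, Slc30a1 2 and Mt3 1. In this longer window at least 1 core was present in 25.7% of all windows, 2 or more in 7.11%, 3 or more in 1.97% and 4 or more in 0.517%. Among windows with 60% to 70% GC the same shares were 40.8%, 13.5%, 3.83% and 0.912%, and among those of genes with at least 1 CPM they were 36.2%, 11.7%, 3.31% and 0.890%.

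**Figure D1:**
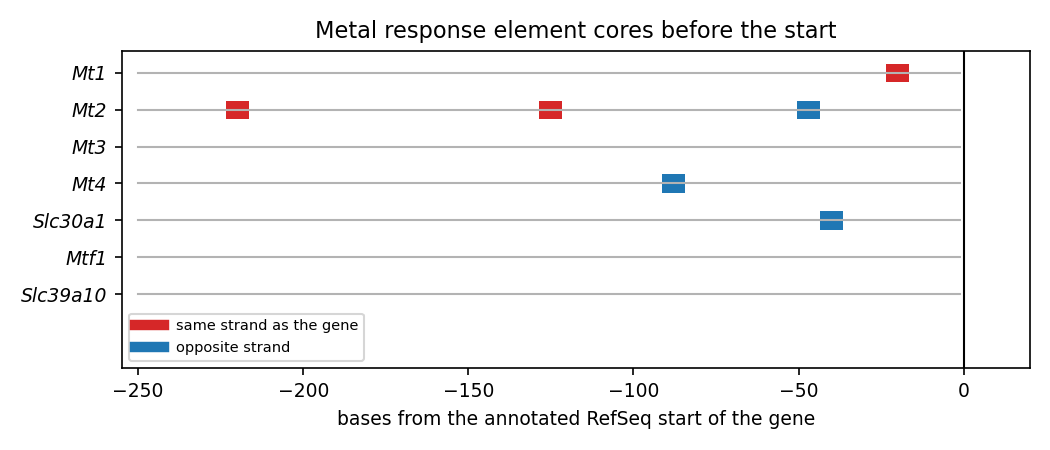
Position of metal response element cores in the 250 bases before the RefSeq start of each gene, in bases from the start (x axis), with cores on the strand of the gene in red and cores on the opposite strand in blue. Mt2 has 3 cores, Mt1, Mt4 and Slc30a1 have 1 each, and Mt3, Mtf1 and Slc39a10 have none (the window of Slc39a10 stands for both of its starts).

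Reads of the 6 libraries had been expressed as log2 CPM, counts scaled to a library of 1000000 reads, with the 0.5 reads that limma-voom adds to every count. In this scale 6025 genes without any read share 1 lowest value. It gave a typical (geometric mean) library size of 19641945 reads, at which 1 CPM equals 19.6 reads. Reads were present for 21154 genes. The 7 markers of the melanocyte lineage (Mlana, Tyr, Tyrp1, Dct, Pmel, Mitf and Sox10) averaged 109 to 7052 CPM. Of 14 markers of keratinocytes, fibroblasts, leukocytes, endothelium and neural cells, Krt5 had no read and the highest was Gfap with 2.14 CPM.

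Mt1 and Mt2 were among the most abundant transcripts of these cells. Mt1 averaged 8.54 on the log2 CPM scale, or 372 CPM, and ranked 376th of the genes with reads, above 98.2% of them. Mt2 averaged 8.46 on the log2 CPM scale, or 353 CPM, and ranked 422nd, above 98.0%. About 7310 reads of Mt1 and 6936 of Mt2 stood behind these levels in each library on average. Their 95% exact Poisson intervals, from 369 to 376 CPM for Mt1 and from 350 to 357 CPM for Mt2, did not overlap. Mt1 held 51.3% of the summed CPM of the metallothioneins. These intervals cover counting error only. A mean holds no spread between samples, so the order of these genes was not set against it. The median of all genes with reads was 2.73 CPM, and that of the 11878 genes with at least 1 CPM was 31.6 CPM.

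The other metallothioneins were near or at the floor. Mt3, which is known mainly from the brain, averaged 0.147 CPM with the added 0.5 reads and 0.122 CPM without them, and lay above 28.3% of the genes with reads. For weakly expressed genes the mean can be turned back into whole reads, because 6 times its distance to the lowest value is the log2 of the product, over the libraries, of 2 times the reads plus 1. This product was 37125 for Mt3, which needs at least 16 reads over the 6 libraries. If Mt3 had reads in every library, the total was between 16 and 34 reads. Mt4, known from stratified epithelium, had no read in any library and is the remaining gene of the family.

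All of these genes lie side by side on chromosome 8 of GRCm38, on the plus strand, within 43131 bases (GENCODE M21). In order, Mt4 lies from 94137197 to 94139031, Mt3 from 94152607 to 94154146, Mt2 from 94172664 to 94173568 and Mt1 from 94179082 to 94180327. Mt2 and Mt1 are separated by 5513 bases, and Mt3 and Mt2 by 18517 bases. The neighbours with high levels and those with few or no reads thus each form 1 side of the cluster. Gm45774, an antisense gene without an entry in the table, overlaps Mt2.

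Reads of close relatives were examined through words of 50 bases in the annotated transcripts. Mt1 and Mt3 shared none of their words (1292 and 1065) with any other gene, so Mt1 and Mt2 shared none with each other. Of the 554 words of Mt2, 254 (45.8%) also occurred in Gm45774, on the opposite strand. The libraries were directional per the labels, and the strand setting of the counting is not given in the sources used here, so reads of Mt2 and Gm45774 may not have been told apart. Mtf1 shared 7.55% of its words with 1110065P20Rik (2.25 CPM) and Slc30a1 shared 8.01% with the antisense gene 1700034H15Rik (0.185 CPM), both of which overlap them. Slc39a10 shared 0.447% with Gm6801.

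Mtf1, the regulator, averaged 5.66 on the log2 CPM scale, or 50.6 CPM, which was above 78.7% of the genes with reads. It lies on chromosome 4 from 124802104 to 124849800. Slc30a1, which moves zinc out across the plasma membrane, averaged 6.26 on the log2 CPM scale, or 76.4 CPM, and was above 84.7% of them. It lies on chromosome 1 from 191906767 to 191913247. Slc39a10, an importer of the plasma membrane, averaged 5.38 on the log2 CPM scale, or 41.7 CPM, and was above 75.9%. It lies on chromosome 1 from 46807544 to 46892852. About 993 reads of Mtf1, 1501 of Slc30a1 and 819 of Slc39a10 stood behind these levels in each library. Their exact Poisson intervals ran from 49.3 to 51.9 CPM, from 74.8 to 78.0 CPM and from 40.5 to 42.9 CPM and did not overlap. These intervals cover counting error only, and CPM takes no account of the length of a gene. Thus 5 of the 6 genes had at least 1 CPM, as did 43.7% of all genes in the table.

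**Figure D2:**
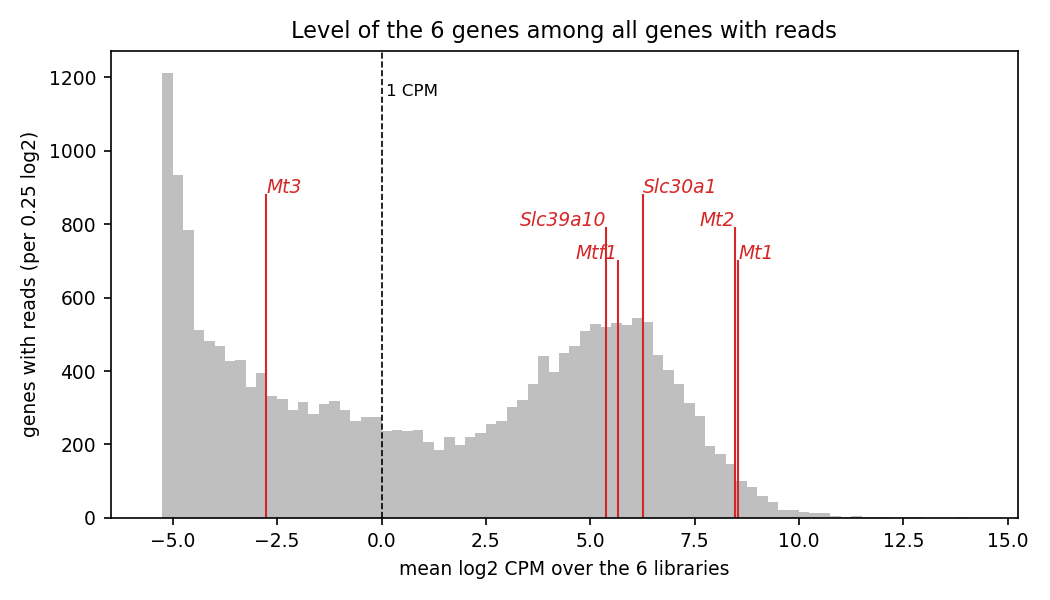
Number of genes with reads (y axis) by mean log2 CPM over the 6 libraries (x axis), in steps of 0.25, with the 6 genes marked in red and 1 CPM as a dashed line. Mt1 (8.54) and Mt2 (8.46) lie in the upper tail, Slc30a1 (6.26), Mtf1 (5.66) and Slc39a10 (5.38) within the main peak of expressed genes, and Mt3 far below 1 CPM.

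Metallothionein transcripts are much shorter than the others, and levels were therefore compared between genes per kilobase of exon. With the union of all annotated exons as the length (1246 bases for Mt1 and 588 for Mt2), Mt2 was highest with 601 CPM per kilobase and Mt1 followed with 299, a ratio of Mt1 to Mt2 of 0.497 (95% interval from 0.491 to 0.504, counting error only). The ratio depended on the length used, which the interval does not cover. The union of Mt1 fills its whole span, from 94179082 to 94180327, without a gap. Its longest annotated transcript has 1085 bases in 1 exon. Both lengths of Mt1 thus count bases that its curated transcript leaves out. With the transcript paired with a curated RefSeq entry as the length (549 bases for Mt1 and 511 for Mt2), a choice made after the values were seen, Mt2 had 691 CPM per kilobase and Mt1 678, a ratio of 0.981. Slc30a1 had 14.6 CPM per kilobase under both lengths. Mt1 was thus 20.5 times as high as Slc30a1 per length with all exons and 46.5 times with the curated transcript.

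Mtf1 had 5.68 CPM per kilobase with all exons and 6.63 with the curated transcript. Slc39a10 had 6.84 and 7.59, so per length it lay above Mtf1, the reverse of their order in CPM. Both lay close to the median of genes with at least 1 CPM, 7.26 CPM per kilobase with all exons. Mt3 had 0.138 and 0.274 CPM per kilobase. Among the 34 genes with reads on the lists of metallothioneins, Mtf1, zinc transporters and copper handling, Mt2 and Mt1 ranked first and second under both lengths, and the third, the copper chaperone gene Atox1, had 55.6 CPM per kilobase under both.

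**Figure D3:**
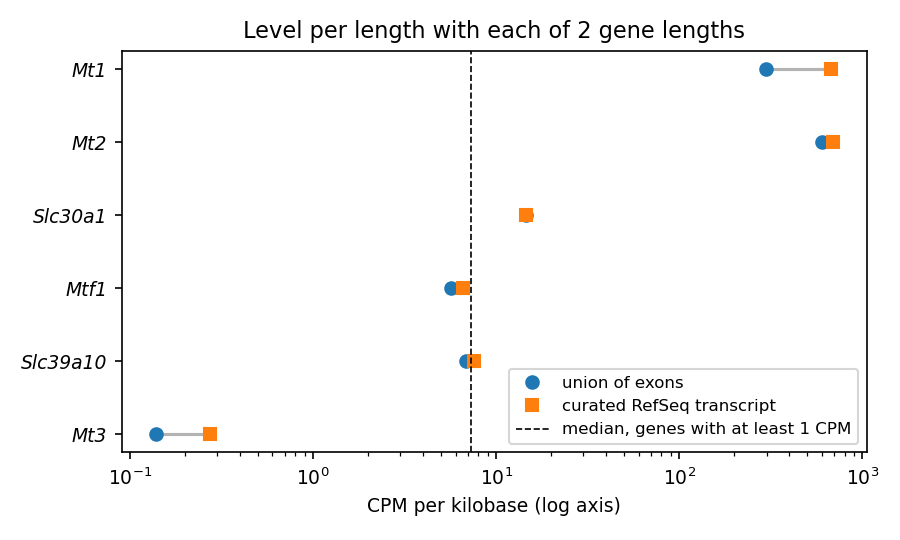
Level in CPM per kilobase (log axis) of the 6 genes, with the union of exons (circles) or the curated RefSeq transcript (squares) as the length, and the median of genes with at least 1 CPM (union of exons) as a dashed line. Mt1 moves from 299 to 678 and comes level with Mt2, whereas Slc30a1 stays at 14.6 and both Mt1 and Mt2 lie above the other 4 genes under either length.

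Slc30a1 was 1 of 10 zinc exporters. All 10 had reads, as did 21154 of the 27179 genes in the table. At least 1 CPM was reached by 6 of the exporters, against 43.7% of all genes. With all exons as the length, 2 exporters were above Slc30a1. Slc30a4, a vesicular zinc transporter, had 23.1 CPM per kilobase and Slc30a5, which serves the secretory pathway, had 15.9. Slc30a1 held 17.7% of the summed CPM per kilobase of the exporters with all exons and 11.8% with the curated transcript. With the curated transcript Slc30a5 rose to 36.4 and Slc30a9, a mitochondrial transporter, to 29.2, and both then lay above Slc30a1, as did Slc30a4 with 23.2. Slc30a8, the exporter of insulin granules, was lowest, and its mean allows only 1 reading, 2 reads in 1 library and none in the others.

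Slc39a10 was 1 of 14 zinc importers. All 14 had reads, as did 21154 of the 27179 genes in the table. At least 1 CPM was reached by 9 of the importers, against 43.7% of all genes. Slc39a10 held 4.45% of the summed CPM per kilobase of the importers with all exons and 4.10% with the curated transcript. Slc39a6, its close relative and known partner in the plasma membrane, was highest with 41.2 CPM per kilobase, 6.03 times the level of Slc39a10 (95% interval from 5.84 to 6.22, counting error only). Slc39a7, which releases zinc from the endoplasmic reticulum, had 38.1 and Slc39a1 had 34.9 CPM per kilobase. In the order of all listed genes with all exons as the length, the counting interval of Slc39a10 overlapped those of its neighbours Slc39a14 (7.17 CPM per kilobase), Ccs (6.95), Slc30a7 (6.84) and Slc39a11 (6.46). With the curated transcript Slc39a14 (15.3) and Ccs (11.6) lay further above Slc39a10 (7.59), and its neighbours were Slc39a11 (7.80) and Mtf1 (6.63). Slc39a8 was lowest with 0.0178 CPM per kilobase, and its mean needs at least 14 reads over the 6 libraries. Slc30a1 was 2.13 times as high as Slc39a10 per length with all exons (95% interval from 2.06 to 2.20, counting error only).

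Of the 24 zinc transporters, 15 (62.5%) had at least 1 CPM, against 43.7% of all genes of the table. The lowest of the 15, Slc39a13, had 12.5 CPM, and the highest of the other 9, Slc30a2, had 0.716 CPM. Between these levels lay 4081 genes, 19.3% of all genes with reads. Mt1 and Mt2 together had 725 CPM, and the 24 transporters together had 1230 CPM.

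**Figure D4:**
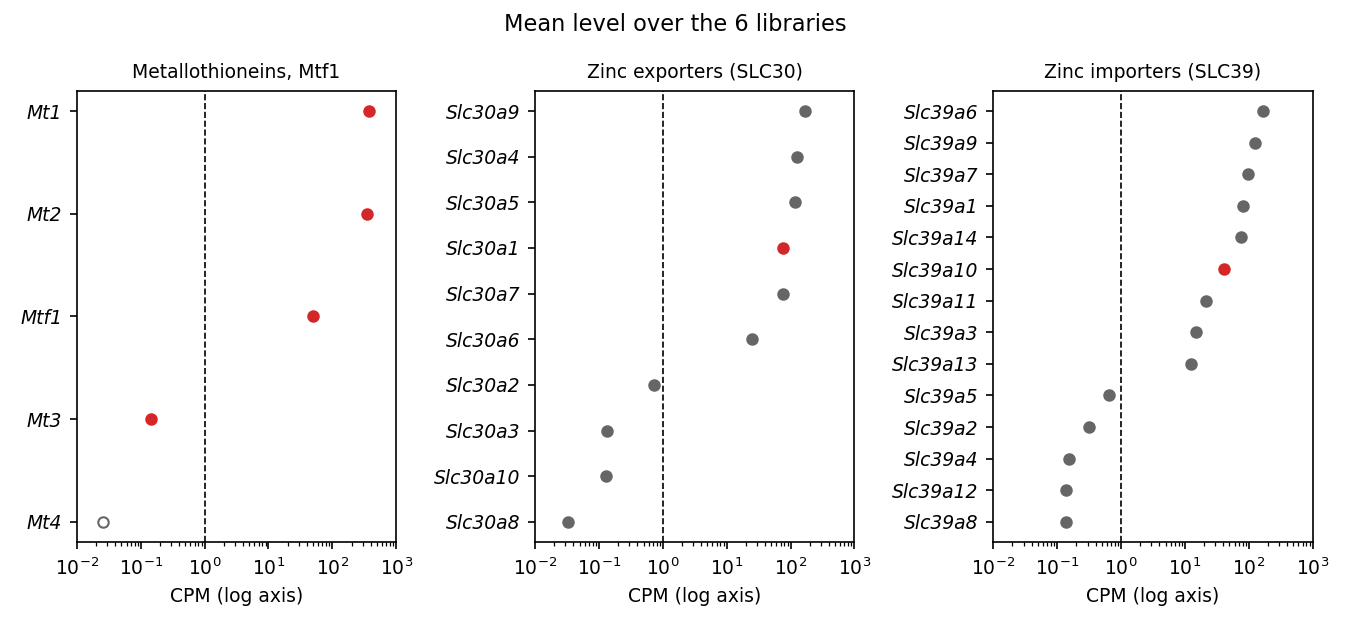
Mean level in CPM over the 6 libraries (log axis) of the metallothioneins with Mtf1, of the zinc exporters and of the zinc importers, with the 6 genes in red, other genes in grey, the 95% exact Poisson interval of the reads as a line for genes with at least 1 CPM (narrower than the point) and 1 CPM as a dashed line. Mt4 is drawn as an open circle at the value of a gene without reads, and the transporters with at least 1 CPM begin at 12.5 CPM (Slc39a13), and those under it end at 0.716 CPM (Slc30a2).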

How the data were processed

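RNA libraries of 3 OLO-treated and 3 OZO-treated B16F10 samples had been aligned to mm10 with HISAT2 (version 2.1.0), counted with featureCounts (2.1.1) and analysed with limma-voom (limma 3.58.1) by the authors, according to the methods and the submitters' processing notes. The deposited table gives, for each gene, a mean log2 CPM over the 6 libraries, which is the only value used here. Its other columns hold the authors' own comparison of OZO with OLO (fold change, moderated statistic, p-values, log odds) and were not used, nor are their values given. The table has 0 columns of single libraries, so the planned edgeR or limma test of OZO against OLO was not run.

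CPM was computed as 2 to the power of the mean, so it is a geometric mean. Library size and reads came from the value shared by genes without reads. Turned back into products, 100% of 6973 genes with a product under 1000000 gave an odd whole number within 0.01. The recovery was also tested on simulated counts. Percentiles are among genes with reads. Counting intervals are exact Poisson (95%) for 6 times the geometric mean of reads without the added 0.5, are given for genes with at least 1 CPM, and those of ratios use a log-normal approximation. Lengths, positions and 50-base words came from GENCODE M21 on GRCm38, which held 23906 of the 24126 Ensembl identifiers. Promoters came from RefSeq on GRCm38.p6.

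Genes named were the 6 members, Mt4, and, per list of metallothioneins, zinc exporters, zinc importers and copper handling genes, the 3 highest and the lowest by CPM per kilobase and those without reads. Cell type markers formed lists of their own outside this rule. Others (Slc30a2, Slc30a7, Slc30a9, Slc39a11, Slc39a13, Slc39a14, Ccs, Gm6801 and genes that overlap a member) were named after their values were seen. Members and lists were chosen with earlier results of these data known. The study describes the samples of a group as independent experiments. Python 3.11.15, numpy 2.4.6, pandas 2.3.3, scipy 1.17.1 and matplotlib 3.10.9 were used.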

Additional observations from a re-analysis of the deposited data

How the results depend on the processing

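No paired analysis was possible because each gene has only 1 value, a mean over the 6 libraries. For the same reason the edgeR and DESeq2 fits, a filter on low counts, the replicate block and leaving out each library were not run, and neither the spread between samples nor an effect of OZO is given. Library totals are known only as a geometric mean.

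Subtracting the 0.5 reads moved the CPM of Mt3 from 0.147 to 0.122 and left that of the other 5 genes within their counting intervals. With the longest transcript as the length, CPM per kilobase was 343 for Mt1, 691 for Mt2, 0.274 for Mt3, 6.63 for Mtf1 and 7.59 for Slc39a10. With the curated transcript, added after the values were seen, Mt1 had 678 and the other 4 kept these values. Slc30a1 kept 14.6 under both. Among all genes of the table the percentiles were 98.6 (Mt1), 98.4 (Mt2), 44.2 (Mt3), 83.4 (Mtf1), 88.1 (Slc30a1) and 81.3 (Slc39a10). Among genes with at least 1 CPM they were 96.8 (Mt1), 96.5 (Mt2), 62.0 (Mtf1), 72.8 (Slc30a1) and 57.1 (Slc39a10), and Mt3 has no value. With the guanine form of the core alone (TGCGCNC), 12.5% of all windows and 1 of the 6 genes, Mt2, held it, in place of 21.4% and 3. With the 50 bases after the start, added after the values were seen, 25.7% of windows and 4 of the 6 genes held a core.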

Other observations

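Genes that handle copper, the other metal bound by metallothioneins, all had at least 1 CPM (6 of 6), as did 43.7% of all genes in the table. The lowest of them, Atp7b, had 1.16 CPM, and its 95% exact Poisson interval, from 0.945 to 1.34 CPM, included 1 CPM. Atox1, which passes copper to the export pumps, had 55.6 CPM per kilobase, the copper importer Slc31a1 had 40.0 and Atp7a, the pump that also supplies copper to tyrosinase in melanocytes, had 28.6. With the curated transcript as the length, Atp7a (51.0) was above Slc31a1 (46.0) and Atox1 kept 55.6. Atp7b, the pump known from liver, was also lowest per length, with 0.178 CPM per kilobase.

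The core of the metal response element was held by 30.3% of the 12021 promoter windows of genes with at least 1 CPM, by 20.7% of the 6905 windows of genes with reads under 1 CPM and by 10.6% of the 3345 windows of genes without reads. The median GC content of these windows was 60%, 52.4% and 42.8% in the same order. The part of GC content in this difference was not tested. Of the 10 windows of zinc exporters, 6 held a core, as did 5 of the 15 windows of zinc importers and 3 of the 5 windows of copper handling genes, against 21.4% of all windows. Their median GC content was 64.4%, 52.8% and 62.4%, and 34.7% of all windows with 60% to 70% GC held a core. These counts are given as a description, with no test.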
